A study of Homo sapiens with 24 samples.

Results

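The 200 genes described here were chosen by how the deposited tables were built and by level. An identifier was eligible if all 12 tables of input RNA (INPUT) listed it and no table of ribosome-protected fragments (RPF) did. Of 60623 genes in the INPUT tables, 40197 were listed only there. The 200 with the highest mean CPM (a gene's counts per 1000000 counts in genes) over the 12 INPUT libraries were kept and are called the members. The rule thus used the INPUT levels, so levels and their order are given as a description without a test. The change between groups of libraries did not enter the rule. A member that is high in 1 line could still enter through that line, and 53 of the 200 had over 50% of their summed line means in 1 line. At the edge of the rule, the mean level was 34.1 and 34.0 CPM for the last 2 members, and 33.9 CPM for each of the 2 genes just outside.

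The INPUT libraries came from 6 cultured human cell populations, with 2 libraries each. 841CON, labelled normal colon epithelium, was grown in EMEM, HCT116 in RPMI-1640, HCT15 in DMEM and SW620 in L15 medium in an air incubator. All 4 are labelled wild type, and the last 3 are colon cancer lines. The other populations are HCT15 cells whose titles carry the vector name PLVX (called vector here, labelled wild type) and HCT15 cells labelled as overexpressing COPS7B, a subunit of the COP9 signalosome. All cells received cycloheximide at 100 µg/mL for 10 minutes and grew with 10% serum. Medium and line cannot be told apart, and nothing in the labels tells whether a line's 2 libraries are separate cultures. The p-values therefore speak only of how far these libraries differ, possibly for technical reasons. The labels describe 1 protocol, for the protected fragments, with sucrose gradients, rRNA removal and a small-RNA library kit, and give no separate account of INPUT.

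Ribosome profiling counts RNA fragments held inside translating ribosomes and compares them with the RNA of the same cells. Total RNA also holds abundant RNAs that ribosomes do not translate, among them the small nuclear RNAs of the spliceosome, small nucleolar RNAs that guide rRNA modification, the RNA of the signal recognition particle, transfer RNAs and long noncoding RNAs. Small-RNA library kits take up short RNAs of these kinds readily. Whether a given member belongs to one of these classes is not known here. The files give Ensembl identifiers without gene names, and 0 of the 200 were matched to the reference table, so members are given by identifier, with no class, position or sequence. For the same reason the markers of colon epithelium and fibroblasts and the level of COPS7B itself were not checked.

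All 12 RPF tables listed the same 20426 genes (called shared genes here), and 4467 of these had no count in any RPF library. Genes listed only in the INPUT tables were mostly silent, with no count in any INPUT library for 25196 of the 40197. The members held nearly all of the signal of that class, between 86.0% and 95.4% of its counts in each library.

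Library facts that touch the results come first. INPUT libraries held 1237231 to 9105954 counts in genes, the deepest being 841CON replicate 2. The 4 vector and COPS7B tables end in 5 summary lines that name no gene, and the other 8 do not, so these sets of tables were written differently. The libraries labelled COPS7B stood apart from the other HCT15 libraries in their shared genes. Over the 5669 shared genes with a mean of at least the last member's, Spearman's rho was 0.731 to 0.812 between HCT15 and vector libraries, 0.490 to 0.557 between vector and COPS7B, and 0.526 to 0.588 between HCT116 and COPS7B. Over the 200 members the order was another, with 0.590 to 0.630 between HCT15 and vector, 0.743 to 0.800 between vector and COPS7B, and 0.386 to 0.471 between HCT116 and COPS7B. By a measure of presence (30 CPM or more in both libraries of a line) and near absence (at most 3 counts in each), 0 shared genes separated HCT15 from vector in either direction. The same measure found 240 shared genes present in COPS7B and near 0 in vector, and 92 the other way. Among all 14982 genes tested, 24 (0.16%) were present in HCT15 and near 0 in vector, and 8 of these were among the 200 members. Present in COPS7B and near 0 in vector were 2 members, beside 1.66% of all tested genes. The other way there were 0 members, beside 0.647%. These are descriptions over genes that share a library and its depth, and their cause was not tested.

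Together the members took between 9.85% and 44.1% of all counts in genes. The share was 38.6% and 44.1% in the SW620 libraries, 25.2% and 26.5% in HCT116, 23.5% and 15.3% in HCT15, and 13.0% and 26.2% in 841CON. It was 9.85% and 13.3% in vector and 17.2% and 10.5% in COPS7B. Both SW620 libraries lay above all 10 others, whereas the 841CON replicates stood further apart than those of any other line. As means these are 41.3% ± 3.86 in SW620, 25.9% ± 0.940 in HCT116, 19.6% ± 9.32 in 841CON, 19.4% ± 5.86 in HCT15, 13.8% ± 4.75 in COPS7B and 11.6% ± 2.42 in vector (SD, n = 2 each). From HCT116 down, neighbours in this order did not differ beyond their spread, and 841CON replicate 2 lay between the HCT116 libraries. The widest 95% Clopper-Pearson interval of any of these shares spanned 0.149 percentage points, so counting error was far below the spread between libraries. Intervals here cover counting error only, since PCR copies of a molecule are counted as reads.

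**Figure D1:**
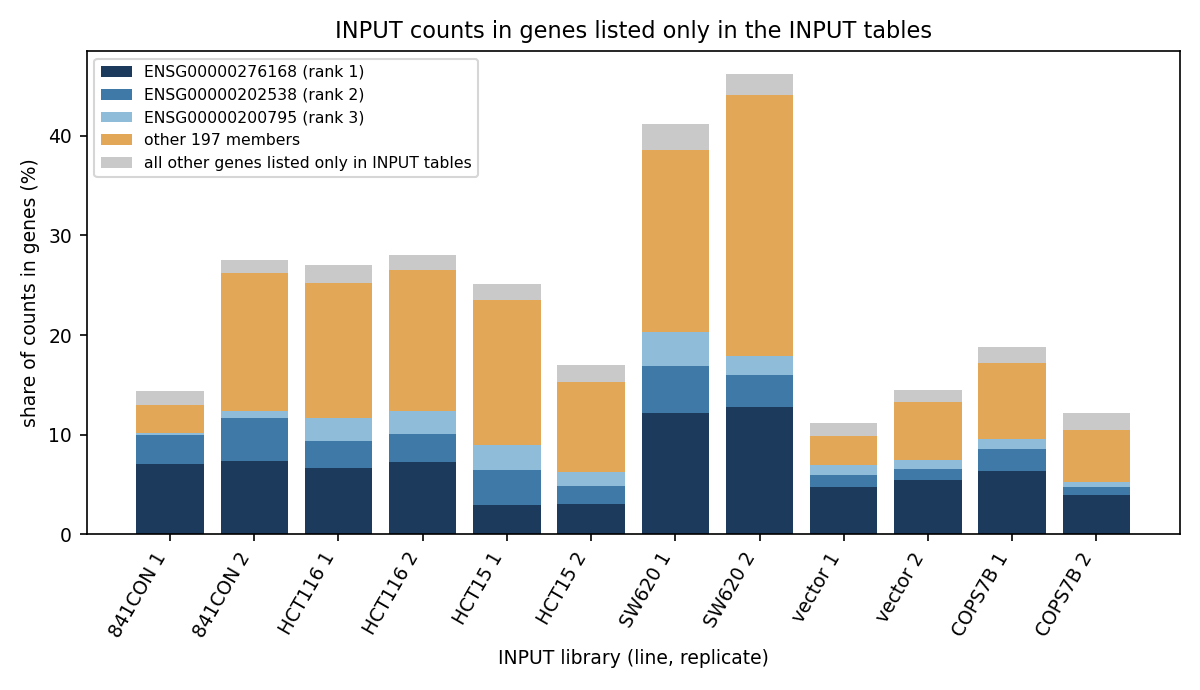
Share of INPUT counts in genes (%, bars starting at 0) for each of the 12 libraries, split into the 3 leading members, the remaining members and all other genes listed only in the INPUT tables. The SW620 bars reach 41.2% and 46.2%, and the lowest bar, vector replicate 1, reaches 11.1%.

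The members' counts were concentrated in a few genes. The 10 leading members held 66.8% to 85.4% of the members' counts in a library, and the 3 leading ones 37.9% to 78.3%. Mean levels were at least 1000 CPM for 23 members, 100 to 1000 CPM for 68 and below 100 CPM for 109, with a median of 95.6 CPM. In every library at least 191 of the 200 had a count, and 180 had one in all 12 libraries.

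ENSG00000276168 was the highest member in 11 of 12 libraries and the second in HCT15 replicate 1. Its level was 70233 and 73895 CPM in 841CON, 66915 and 72892 in HCT116, 29791 and 30895 in HCT15, 121328 and 128227 in SW620, 47233 and 54275 in vector, and 63631 and 39390 in COPS7B. It was highest in both SW620 libraries and lowest in both HCT15 libraries, and its replicates lay close together in every line but COPS7B. None of the fitted comparisons passed for it (edgeR adjusted p from 0.093 to 1).

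ENSG00000202538, ranked 2, stood at 29160 and 43041 CPM in 841CON, 26962 and 27832 in HCT116, 34863 and 18136 in HCT15 and 47494 and 31618 in SW620. In vector it was at 12774 and 11043 CPM and in COPS7B at 21626 and 8283. The vector libraries lay below all 8 libraries of the 4 parental lines. It passed in none of the comparisons either (edgeR adjusted p from 0.52 to 0.92).

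ENSG00000200795, ranked 3, was low in 841CON, at 2379 and 6952 CPM, against 22445 and 23447 in HCT116, 24688 and 14018 in HCT15 and 34366 and 19228 in SW620. Every library of the 3 parental cancer lines was above both 841CON libraries. The change passed in HCT116 (log2 change 2.26, SE 0.794, edgeR adjusted p = 0.049) and SW620 (2.63, SE 0.805, adjusted p = 0.026), and it did not pass in HCT15 (1.74, adjusted p = 0.12).

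ENSG00000210112, ranked 4, was at 37132 and 39582 CPM in HCT116, above every other library, of which the highest was HCT15 replicate 2 at 15023 CPM. In 841CON it was at 1470 and 4307 CPM, in HCT15 at 7781 and 15023, in SW620 at 6866 and 13728, and in the vector and COPS7B libraries between 1363 and 3139. It rose in HCT116 against 841CON (log2 change 3.70, SE 0.792, edgeR adjusted p = 0.0060).

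Of the members ranked 5 to 10, ENSG00000201098 passed, rising in SW620 to 15423 and 26378 CPM from 1982 and 7208 in 841CON (log2 change 2.31, SE 0.811, edgeR adjusted p = 0.045). ENSG00000210184 and ENSG00000202111, ranked 5 and 8, passed in no comparison. For several leading members the replicates stood far apart. ENSG00000199990, ranked 9, was at 400 CPM in 841CON replicate 1 and 25561 in replicate 2, and at 922 and 8639 CPM in the vector pair. ENSG00000210077, ranked 6, was at 139 and 14003 CPM in the 841CON pair and at 28609 and 5386 in SW620. ENSG00000261441, ranked 10, owed its rank to SW620 replicate 2, which held 34535 CPM, while the other 11 libraries ranged from 230 to 2482. Its call in SW620 against 841CON (log2 change 3.76, SE 1.19, edgeR adjusted p = 0.030) therefore rests on that library.

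The spread between replicates was larger for the members than for shared genes with a mean of at least the last member's, counted as pairs over 2-fold apart. In 841CON, 126 members differed by over 2-fold between the 2 libraries (63.0%, on log2(CPM + 1)), against 39.3% of those 5669 shared genes. At least 10-fold higher in 841CON replicate 2 were 32 members, and 10 were at least 10-fold higher in replicate 1. The shares were 26.5% against 20.0% in HCT15, 34.5% against 12.4% in SW620, 29.0% against 8.41% in vector and 34.0% against 4.69% in COPS7B. In HCT116 the shares were 3.5% against 0.335%, the lowest of the 6 lines in both sets of genes. The 841CON libraries differ in depth (1616158 and 9105954 counts), and the part of depth in this spread was not tested.

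Levels also ranged widely across lines. Among the 180 members with a count in all 12 libraries, the highest level was a median of 31.8 times the lowest. The same ratio was 7.02 for the 5286 shared genes with a count in every library. It was under 10 for 26 of the 180 members (14.4%) and for 65.7% of those shared genes, and over 100 for 43 members. By line means, 112 members were highest in SW620, 37 in HCT116, 18 in 841CON, 15 in HCT15 and 9 each in vector and COPS7B. Scaled to the counts of shared genes alone, 139 were highest in SW620.

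**Figure D2:**
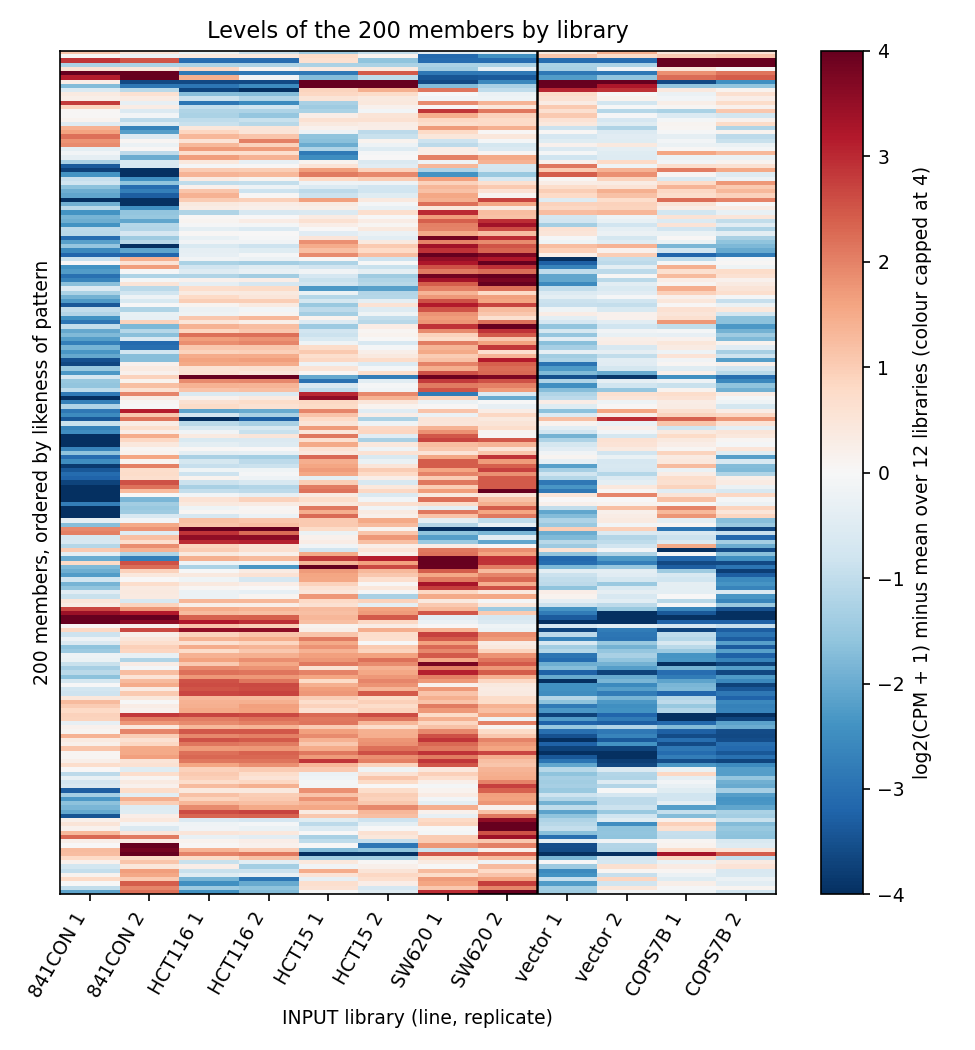
Level of each of the 200 members in each INPUT library, as log2(CPM + 1) minus the member's mean over the 12 libraries, with rows ordered by likeness of pattern and colours capped at 4. The line separates the 8 tables without summary lines from the 4 vector and COPS7B tables, where a block of rows is blue in all 4; the SW620 columns hold the highest line mean of 112 members.

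Each line was then compared with 841CON, the comparison the design text asks for, in 1 edgeR quasi-likelihood fit of the 14982 genes that passed a filter on low counts. All 200 members passed it. For 55 members the mean over the libraries of the other lines was below the last member's once 1 line was left out, most often SW620 (30 members). Such a member had to be high in that line, so its test against a lower line is not independent of the rule. Among the calls below this holds for 20 of the rises in SW620, 7 in HCT116, 4 in HCT15 and 2 in COPS7B. It holds for 3, 5, 5 and 1 of the falls in the same order and 3 of those in vector. Members that lines brought in only together, such as HCT15 with vector, are not in these counts. A call is a Benjamini-Hochberg adjusted p under 0.05 over all 14982 genes, two-sided, and SEs were derived from the fitted change and its F statistic. The 3 comparisons share the 841CON libraries. Counts for members are described beside the share of all tested genes called.

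In SW620, 86 members rose and 11 fell against 841CON. These are 43.0% and 5.50% of the 200, where 18.1% of all tested genes were called higher and 18.4% lower (36.4% in all). The median log2 change was 1.80 over the members and 0.06 over all genes tested. In CPM, 118 members lay above 841CON in all 4 libraries compared (31.7% of all tested genes did) and 20 below (29.8%). With each of the 4 libraries left out in turn rises outnumbered falls, and 69 to 137 members passed. The highest number and a median of 2.78 were without 841CON replicate 2 (36.4% of all genes called), and the lowest number was without SW620 replicate 1 (19.4%).

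ENSG00000233532, ranked 189, had no count in either 841CON library. It stood at 232 and 123 CPM in SW620, 32.3 and 20.4 in HCT15 and 6.15 and 7.56 in HCT116, so every library of the parental cancer lines was above 841CON. Against a floor of 3 counts over both 841CON libraries the level was at least 633-fold higher in SW620, the line through which it entered the members, and at least 94.2-fold higher in HCT15 (edgeR adjusted p = 0.00076 for HCT15). Such bounds compare CPM without further scaling. ENSG00000199377, ranked 30, was at 6.19 and 0.988 CPM in 841CON and at 774 and 1870 CPM in SW620, a log2 change of 9.09 (SE 1.07, edgeR adjusted p = 0.00025). It was also high in HCT116, at 577 and 561 CPM (log2 change 7.70, SE 1.03, adjusted p = 0.00063), and in all 6 libraries labelled HCT15, between 199.3 and 1342 CPM. Its 841CON level was thus the low point of the series in both libraries.

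ENSG00000203930, ranked 131, fell in SW620. It was at 151 and 323 CPM in 841CON and at 0.613 and 0.689 CPM in SW620, where the pair held 3 counts in all. The ratio of means was 358, and the Poisson interval of the low count (95%) put it between 122 and 1736. It entered the members through 841CON, so no test is given. It was at 45.7 and 14.8 CPM in HCT116 and 4.17 and 7.66 in HCT15.

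ENSG00000268388, ranked 75, was high in 841CON alone, at 812 and 865 CPM. It had no count in either HCT116 or SW620 library, 0 and 39.1 CPM in HCT15, none in vector, and 25 and 31.1 CPM in COPS7B. With the floor of 3 counts over the line, the bound on the fall was at least 1523-fold in HCT116. In SW620 it was at least 1268-fold lower by the same floor. In HCT15 the fitted log2 change was -5.95 (SE 1.54), with 1 of its libraries at 0 and the other at 92 counts. It too entered the members through 841CON alone, and its falls are descriptions with no test.

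In HCT116, 48 members rose and 21 fell, which is 24.0% and 10.5% of the members beside 15.5% and 16.8% of all tested genes. The median log2 change was 0.76 over the members and 0.00 over all genes, and it was 0.46 without 841CON replicate 1 and 1.93 without replicate 2. In CPM 105 members lay above 841CON in all 4 libraries compared (34.3% of tested genes did) and 28 below (29.8%). Without HCT116 replicate 1 or 2 the number called was 33 or 30, and it was 35 with this close pair summed into 1 library. The share of all genes called fell as well, to 11.3%, 10.7% and 12.1%, and 26, 24 and 28 of the members' calls were higher. Without 841CON replicate 1 or 2 there were 82 or 99 calls, with 42.6% and 28.0% of all genes called. ENSG00000261373, ranked 143, rose to 59.3 and 58.6 CPM in HCT116 from 2 counts in 841CON replicate 1 and 0 in replicate 2. The ratio of means was 316 (87.5 to 2611 by counting error, edgeR adjusted p = 0.00054). It was above both 841CON libraries in all 10 other libraries, the lowest being SW620 replicate 1 at 11.6 CPM. ENSG00000262074, ranked 135, fell from 15.5 and 10.4 CPM in 841CON to 2 counts and 0 in HCT116, a ratio of 35.3 (9.77 to 291 by counting error, edgeR adjusted p = 0.012). Elsewhere it was above HCT116 in every library, at 11 to 195 CPM outside 841CON.

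In HCT15, 28 members rose and 19 fell. The shares were 14.0% and 9.50%, near the 13.2% and 13.4% of all tested genes called in each direction, and the median log2 change was 0.29 against 0.00 over all genes. Without 841CON replicate 2 it had 91 calls (69 higher, 22 lower) and a median of 1.37, with 28.7% of all genes called, so the nearness to the background did not hold there. Without HCT15 replicate 1 it had 26 calls (15 higher, 11 lower) and a median of 0.053, with 18.4% of all genes called. Without 841CON replicate 1 falls outnumbered rises, at 27 against 25, and the median was -0.00090, with 33.9% of all genes called. Fitted on the HCT15 and 841CON libraries alone edgeR called 0 members and 0 of all 12779 genes in that fit. DESeq2 over all 12 libraries called 56 of the 200 members, beside 29.3% of all genes. Without trimmed-mean scaling 39 members were higher and 17 lower, beside 27.0% of all genes called.

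ENSG00000202515, ranked 32, marked HCT15 by its near absence. It was at 2.61 and 3.83 CPM in HCT15 and 0.906 and 5.66 in vector, while 841CON held 317 and 3077 CPM, HCT116 532 and 579, and SW620 769 and 680. The log2 change of HCT15 against 841CON was -9.43 (SE 1.22, edgeR adjusted p = 0.00088). ENSG00000244649, ranked 157, had the opposite pattern, with 222 and 128 CPM in HCT15 and 114 and 69.5 in vector. No library of any other line exceeded 2.07 CPM. From 2 counts in 841CON the ratio of means was 940 (260 to 7766 by counting error), with no test, since HCT15 brought it among the members.

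**Figure D3:**
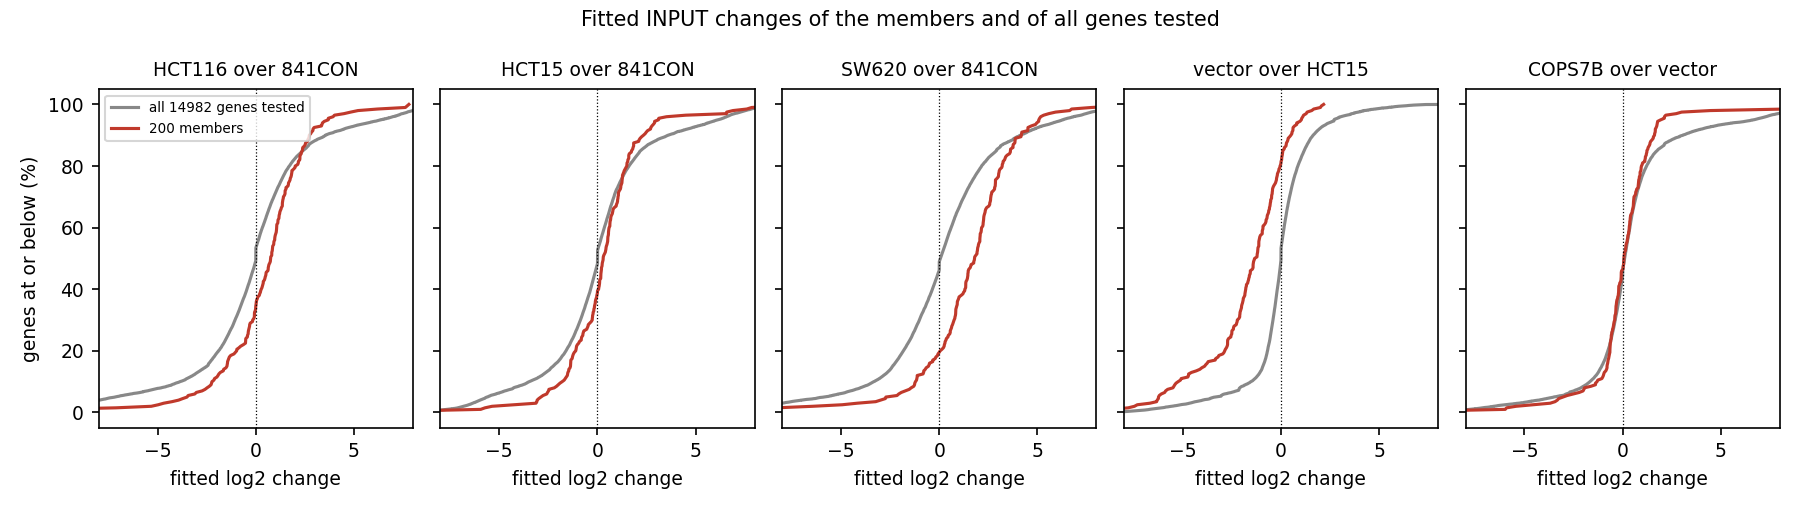
Cumulative share of genes (%) by fitted log2 change in each comparison, for the 200 members (red) and all 14982 genes tested (grey), over a range of -8 to 8. The members' curve lies to the right of the grey curve in SW620 over 841CON (medians 1.80 and 0.06) and to the left in vector over HCT15 (medians -1.28 and 0.00).

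Called higher in all 3 lines were 20 of the 200 members, beside 5.69% of all tested genes, and called lower in all 3 were 4, beside 6.58%. These counts share the 841CON libraries. HCT116, HCT15 and SW620 differed among themselves for 88 members (44.0%) by edgeR's F test of the same fit, beside 35.2% of all tested genes. Without SW620 replicate 1 or 2 this was 55 or 56, and the share of all genes fell with it, to 15.1% and 15.0%. The 2 HCT116 leave-outs gave 59 members each, with 12.3% and 11.6% of all genes. Over all 6 tests 57 of the 200 members passed none, beside 38.6% of all tested genes.

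Next, vector was set against parental HCT15. No member rose and 32 fell, 16% of the members, where 0.254% of all tested genes were called higher and 0.527% lower (0.781% in all). The members thus made up 32 of the 79 lower calls, and a further 42 were other genes listed only in the INPUT tables. At an unadjusted p under 0.05 there were 81 members, beside 1790 of all 14982 tested genes. The median log2 change was -1.28 over the members and 0.00 over all genes, and 115 members lay below HCT15 in all 4 libraries compared (14.3% of tested genes did) and 19 above (25.3%). Fewer members, and fewer of all genes, passed with either vector library left out. The members' median log2 change was then -1.01 without vector replicate 1 and -1.89 without vector replicate 2. Over all genes it was -0.02 and 0.00.

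ENSG00000235174, ranked 68, was at 218 and 304 CPM in HCT15 and held 1 count in each vector library, 0.453 and 0.808 CPM. The ratio of means was 449 (124 to 3708 by counting error, edgeR adjusted p = 0.00067). It was between 52.6 and 380 CPM in all 8 libraries without summary lines and at most 5.01 CPM in the 4 with them. ENSG00000254285, ranked 198, was at 61.0 and 77.0 CPM in HCT15 and had 0 and 1 count in vector, a ratio of 238 (42.7 to 9388 by counting error). Its mean without HCT15, or without SW620, would be below the last member's, so no test is given. In COPS7B it held 0 and 2 counts and in 841CON 2 and 3, so its low libraries did not follow the summary lines alone.

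The members' levels were also described by the kind of table. In CPM, 39 members were lower in all 4 tables with summary lines (vector and COPS7B) than in any of the 8 without, and 0 were higher (1.54% and 4.01% of all tested genes). The gap between the highest of the 4 and the lowest of the 8 had a median of 3.91-fold and reached 21.2-fold, and exceeded 5-fold for 15 members. Their ranks ran from 29 to 193. Of the 32 members called lower in vector, 30 were among these 39. Against HCT15 the median log2 change in vector was -4.71 over the 39 and -0.92 over the other 161. Between COPS7B and vector, which share the kind of table, 0 of the 39 passed edgeR's test, and their median log2 change was -0.34. The 39 were chosen on these levels, so these are descriptions. The summary lines put 782773 to 1855477 reads per vector or COPS7B library down as aligned more than once, and how the other tables treated such reads is not given in the sources used here. Vector and the kind of table cannot be told apart.

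**Figure D4:**
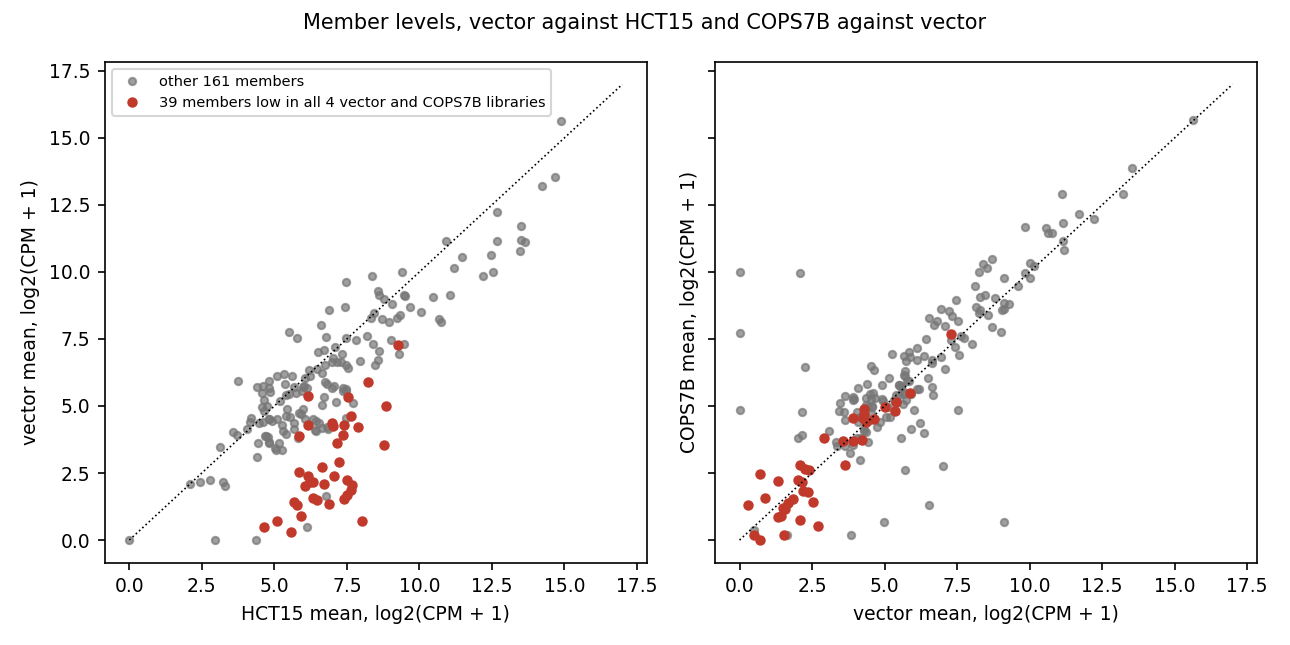
Mean INPUT level of each member, as log2(CPM + 1), in vector against HCT15 (left) and COPS7B against vector (right), with the dotted line at equal levels. The 39 members low in all 4 vector and COPS7B libraries (red) fall below the line on the left (median log2 change -4.71) and lie near it on the right (-0.34).

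The libraries labelled COPS7B were compared with vector. Among the members 5 rose and 8 fell, which is 6.5% in all, beside 10.3% of all tested genes (5.07% higher, 5.23% lower). There were 33 members at an unadjusted p under 0.05, beside 3493 of all 14982 tested genes. The median log2 change was 0.07 over the members and 0.10 over all genes. In CPM 49 members lay above vector in all 4 libraries compared (37.8% of tested genes did) and 34 below (23.4%). The count was 8 without vector replicate 1 (2.29% of all genes called) and 7 without COPS7B replicate 2 (2.26%). It was 35 of 179 members tested when the 4 compared libraries were fitted alone, where 33.3% of all genes were called. The members' median turned with single libraries, to -0.44 without COPS7B replicate 1, 0.44 without COPS7B replicate 2, -0.087 without vector replicate 1 and 0.48 without vector replicate 2.

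The members named here are those with the largest called changes. ENSG00000261409, ranked 196, had 266 and 956 counts in the COPS7B libraries, 133 and 286 CPM, and 0 in the other 10 libraries of the series. Against the floor of 3 counts over both vector libraries it was at least 241-fold higher. It was among the members only through the COPS7B libraries, so this is a description with no test. ENSG00000202515, near 0 in HCT15 and vector, was at 1301 and 711 CPM in COPS7B, a log2 change of 8.34 (SE 1.22, edgeR adjusted p = 0.0024). ENSG00000272620, ranked 60, was at 848 and 600 CPM in HCT15 and 504 and 600 in vector, but at 0 and 1.2 CPM in COPS7B. Its log2 change was -9.60 (SE 1.73), and in the other lines it was at 0 to 13.6 CPM. The HCT15 and vector libraries together brought it among the members, so no test is given. ENSG00000244649 fell as well, from 114 and 69.5 CPM in vector to 1.5 CPM in each COPS7B library (log2 change -5.98, SE 0.863). It too was high only in HCT15 and vector, so no test is given.

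Each of these 4 members was on the same side, high or near 0, in all 4 HCT15 and vector libraries. Each was on the other side in both libraries labelled COPS7B. They were picked for large changes between vector and COPS7B, so their opposite sides there follow from the choice. For 3 of them the COPS7B levels were within the range of the 841CON, HCT116 and SW620 libraries, and for ENSG00000261409 no other library held a count. The shared genes described above also differed between these libraries, and the part of the overexpression, the clone or the label was not tested.

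**Figure D5:**
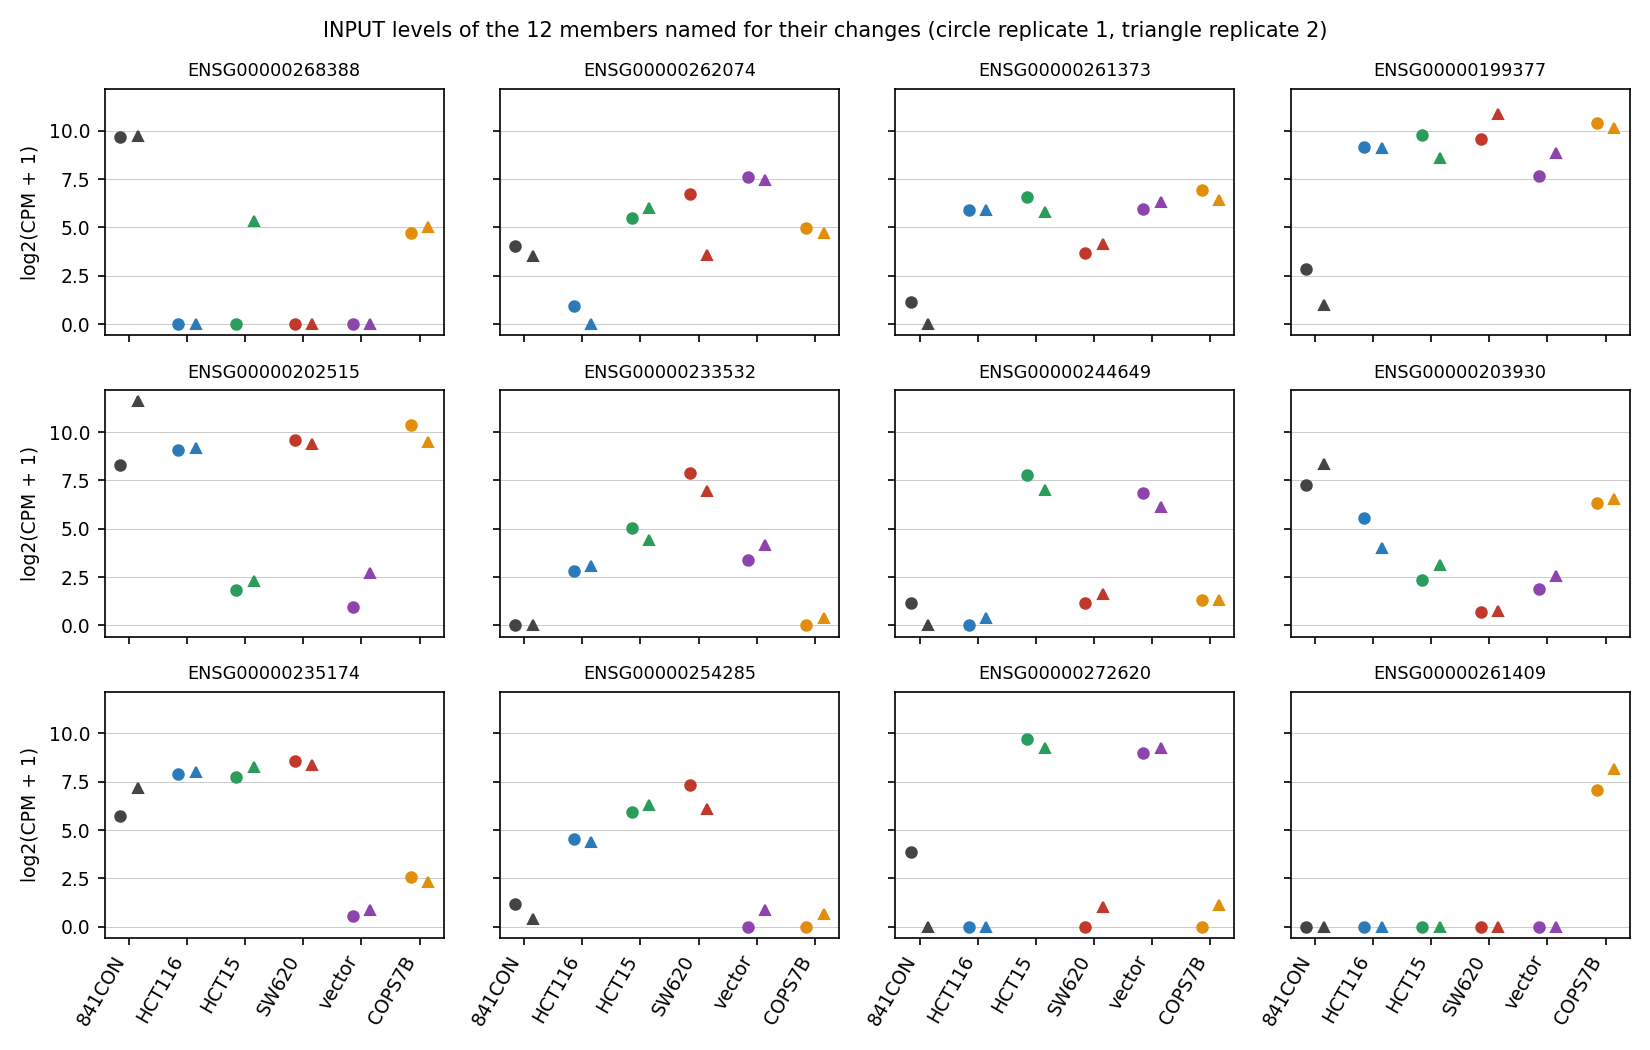
INPUT level, as log2(CPM + 1), of the 12 members named for their changes, by line, with replicate 1 as a circle and replicate 2 as a triangle. ENSG00000244649 and ENSG00000272620 are high in HCT15 and vector and near 0 in COPS7B, ENSG00000202515 shows the reverse, and ENSG00000261409 has counts in the COPS7B libraries only.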

How the data were processed

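The authors deposited 1 table of raw counts per Ensembl gene for each of 24 libraries. Tools listed per the submitters' processing notes are HTSeq 2.0.2, STAR 2.7.9 and cutadapt 3.5, with build GRCh38. For strand, annotation release and multiply aligned reads, settings were not given in the sources used here. For this reason counts of antisense or overlapping genes, and of genes with close copies, are uncertain. The 12 RPF tables served only to list genes. Summary lines that name no gene were left out.

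One edgeR quasi-likelihood model (edgeR 4.0.16, R 4.3.3) with a mean per line was fitted to the 12 INPUT libraries, leaving 6 residual degrees of freedom, after edgeR's expression filter (minimum count 10) and trimmed-mean (TMM) scaling. DESeq2 1.42.0 was an alternative. Members, lists and tests were chosen with earlier results of these data known. Planned classes by gene symbol were not used, since no identifier was matched. Named are the 10 members of highest level (15 were planned) and, per comparison, the 2 (4 were planned) with the largest called change in each direction whose libraries did not overlap, fewer because identifiers carry no names. One member is counted and not printed.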

Additional observations from a re-analysis of the deposited data

Results flagged for a closer look

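HCT116, HCT15 and SW620 differed from each other, by edgeR's F test of their INPUT levels, for 88 of the 200 members. This is 44.0%, beside 35.2% of all tested genes. Among the members named, the adjusted p of this test was 0.00036 for ENSG00000244649, which was high in HCT15 alone of the 3 lines. It was 0.001 for ENSG00000233532, highest in SW620, and 0.002 for ENSG00000272620, again high in HCT15. ENSG00000203930, with its lowest levels in SW620, had 0.0021 and ENSG00000202515, near 0 in HCT15, had 0.0022. ENSG00000262074, near 0 in HCT116, had 0.0046. ENSG00000261441 had 0.011, which rests on SW620 replicate 2. ENSG00000254285, lowest in HCT116, had 0.022. ENSG00000244649 and ENSG00000254285 through HCT15, and ENSG00000233532 and ENSG00000254285 through SW620, owe their place among the members to a line in this test. ENSG00000272620 owes its place to HCT15 and vector together. For members that owe their place to such a line the test is not independent of the choice, so no p-value is given.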

How the results depend on the processing

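With groups of 2 libraries, the number of members called depended on the filter and on which libraries were fitted. With no filter on low counts, calls rose to 77 in HCT15, 89 in vector (85 lower), 35 in COPS7B and 143 among the 3 cancer lines, while 15.5%, 1.84%, 6.89% and 21.5% of all 31221 genes were called. With only the compared libraries there were 37 in HCT116, 0 in HCT15, 61 in SW620, 35 in COPS7B and 141 among the cancer lines, beside 24.3%, 0%, 24.8%, 33.3% and 49.4% of all genes. Requiring at least a 2-fold change left 42 in HCT116 and 27 in HCT15, beside 21.7% and 17.5% of all genes. This setting was not run for the test among the cancer lines. With the HCT116 pair summed there were 35 in HCT116 and 58 among the cancer lines. DESeq2 called 54 in vector, beside 2.91% of all genes. The 200 genes of highest median CPM, 175 of them members, gave 8 in COPS7B, beside 10.3% of all genes. Leaving out each library in turn gave 30 to 99 calls in HCT116, 26 to 91 in HCT15, 69 to 137 in SW620, 5 to 36 in vector, 7 to 10 in COPS7B and 55 to 82 among the cancer lines. In every test the share of all genes called also changed with the library left out. These ranges therefore do not describe the members alone. Fits on fewer libraries also differ in the genes that pass the filter, and the cause of these differences was not tested.

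The correlation of replicate deviations between lines ran from -0.130 to 0.121 and was over 0.1 in 1 of 15 pairs of lines. Such values cannot tell whether libraries with the same replicate number were handled together. With the replicate block 64, 42, 94, 31, 11 and 90 members passed in HCT116, HCT15, SW620, vector, COPS7B and among the cancer lines. The shares of all genes called were 28.3%, 22.3%, 32.2%, 0.574%, 7.48% and 28.9% in the same order. Chosen after seeing the data, a fit without the 4 tables with summary lines gave 53, 32 and 85 in HCT116, HCT15 and SW620. There 23.7%, 16.5% and 27.9% of all genes were called. Without the 3 leading members the share of counts was 8.30% in 841CON, 13.8% in HCT116, 11.8% in HCT15, 22.2% in SW620, 4.35% in vector and 6.41% in COPS7B. Per 100 counts of shared genes, all 200 members together held 35.7 counts in HCT116 and 73.8 in SW620. Leaving out a library, the share ranged from 13.0% to 26.2% in 841CON, 25.2% to 26.5% in HCT116, 15.3% to 23.5% in HCT15, 38.6% to 44.1% in SW620, 9.85% to 13.3% in vector and 10.5% to 17.2% in COPS7B. Of 39 changes of named members followed over all settings, 14 kept their call throughout. ENSG00000262074 in SW620 turned from a log2 change of 2.29 to one of -0.028 (edgeR adjusted p = 1) without SW620 replicate 1, and was 3.16 without SW620 replicate 2.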
